A study of Mus musculus with 6 samples.

Results

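The genes for 9 laminin chains, Lama1, Lama2, Lama3, Lama4, Lama5, Lamb1, Lamb2, Lamb3 and Lamc1, were compared between the mouse malignant mesothelioma lines AC29 and AB1. They were taken by symbol, as the probe sets whose single gene symbol in the platform annotation is one of these names, and where a gene had several, the brightest on average across the 6 arrays stood for it. All 9 were measured, through 17 probe sets, among 18193 genes in all. AB1 is a line from a BALB/c mouse, grown to passage 40, and AC29 a line from a CBA mouse, grown to passage 60; the labels give the mice of both as female and 6 to 8 weeks old. RNA came from 3 flasks of each line in the same serum-containing medium at 80% confluency, with no drug or other agent named in the labels, and each flask went on 1 Affymetrix 3′ expression array. Strain, passage and any processing batch coincide with the line and cannot be told apart from it, and each group is a single cell line, so that p-values measure only the spread between flasks.

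Laminins are the large glycoproteins that form the first network of a basement membrane, the sheet of matrix under epithelia and mesothelia and around muscle, nerve and vessels. Each molecule is a trimer of an alpha, a beta and a gamma chain wound into a coiled coil and secreted together; the alpha chain carries the globular domains that bind integrins, dystroglycan and other receptors. The mesothelium, the lining of the body cavities from which mesothelioma arises, rests on such a membrane.

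The deposited values were on a log2 scale. A floor of 6.07 was set at the 95th percentile of 86 probe sets for olfactory, vomeronasal and taste receptors, genes that these cells are not expected to use, and values at or under it were treated as background. Array medians lay between 5.76 and 5.81, and Pearson's r across genes was 0.995 to 0.998 within a line and 0.937 to 0.938 between lines. The lines differ in the markers of the labelled cell type. Of 20 mesothelial markers 16 were higher in AC29 and 1 in AB1, by the rule given below, which 10.9% of all genes passed. For 11 of the 20 no AB1 array was above the floor, against 7115 of all 18193 genes. Wt1, Upk3b and Bnc1 were among the 11, while Msln was above the floor in both lines. The mean over that list was 6.72 on every AB1 array and 10.46 to 10.57 on the AC29 arrays, and the median difference was 4.03. In a list of 10 smooth muscle and pericyte markers, 3 were higher in AB1 (Acta2, Tagln and Pdgfrb) and 1 in AC29 (Cnn1). The other 6 did not pass, Mcam and Cspg4 among them. The mean over this list was 7.26 to 7.38 in AB1 and 6.11 to 6.20 in AC29, but its median difference was only -0.23. Acta2 (-6.70) and Pdgfrb (-4.15) weigh heavily in that mean. The Acta2 call rests on a probe set with a suffix for shared targets, and its others were under the floor. These differences move with the line, as the laminin differences do, and their part in them was not tested.

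Both lines had signal for laminin chains of each type (alpha, beta and gamma), and 2 chains differed clearly. Lama5 was 4.41-fold higher in AC29, Lamb1 was 5.49-fold higher in AB1, and Lamb3 passed the rule at values near the floor. The rule was an adjusted p under 0.05 in limma, over all genes, and at least a 2-fold difference. It was passed by 3 of the 9 chains, 2 toward AC29 and 1 toward AB1; among all genes 10.9% passed, 5.12% toward AC29 and 5.82% toward AB1. With an adjusted p under 0.05 alone, 4 of the 9 passed, against 39.1% of all genes. For 5 of the 9 there was no overlap between AB1 and AC29 arrays, against 50.1% of all genes. The median difference over the 9 was 0.05 on the log2 scale, against -0.0047 over all genes.

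**Figure D1:**
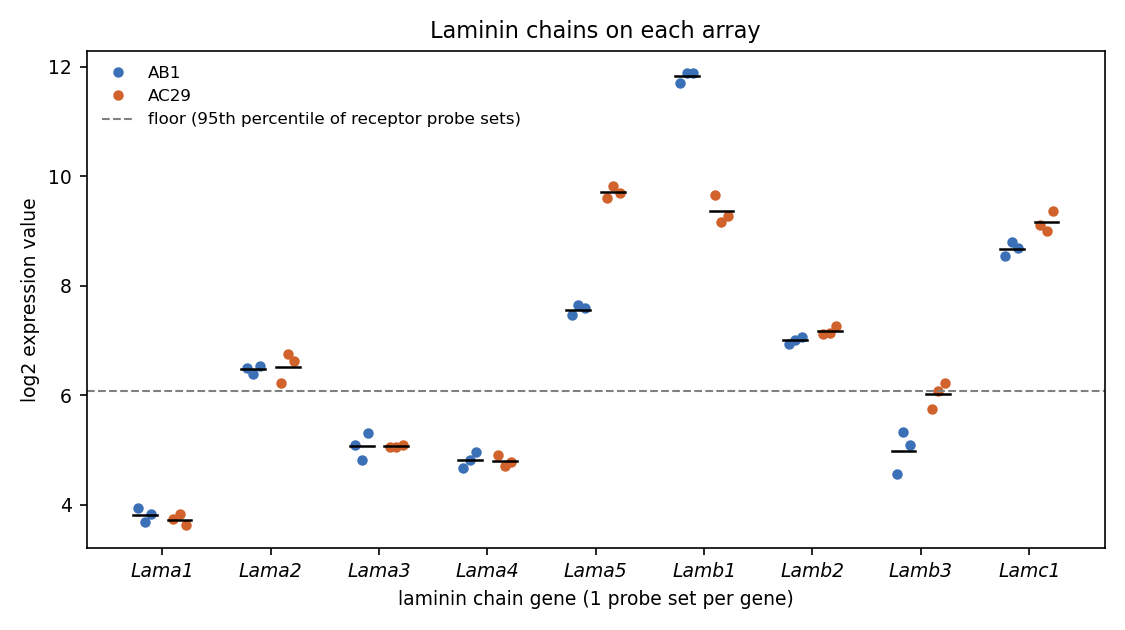
The log2 value of each laminin chain gene (y axis) on each of the 3 AB1 arrays (blue) and 3 AC29 arrays (orange), with the mean of each line as a black bar and the floor of 6.07 as a dashed line. Lama5 lies higher in AC29 and Lamb1 higher in AB1 on every array, and Lama1, Lama3 and Lama4 lie under the floor on all 6.

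Among the alpha chains, which decide what receptors a laminin binds, Lama5 was the only one of the 5 to pass the rule. Lama5 encodes the alpha chain found most widely in adult basement membranes, of epithelia and vessels among others. It read 7.47, 7.65 and 7.59 in AB1 and 9.61, 9.82 and 9.70 in AC29. Every AC29 array was higher than every AB1 array, and the distance between the lines was far wider than the spread within either. The means were 7.57 ± 0.09 (SD, n = 3) in AB1 and 9.71 ± 0.11 in AC29, a log2 difference of 2.14 with a 95% interval of 1.93 to 2.35 (limma adjusted p = 1.35e-07). A second Lama5 probe set read 6.54, 6.69 and 6.79 in AB1 and 8.34, 9.13 and 8.54 in AC29. It gave a difference of 2.00 in the same direction, with the AC29 array of replicate 14 above the other two. The remaining Lama5 probe set was under the floor on all arrays, at 4.07 to 4.88, and says nothing on the gene.

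The other alpha chains showed no difference that could be measured. Lama2, the alpha chain of muscle and peripheral nerve, read 6.5, 6.39 and 6.53 in AB1 and 6.22, 6.75 and 6.62 in AC29. All of these values were a little above the floor and overlapped, the difference of 0.05 having an interval of -0.25 to 0.36 (limma adjusted p = 0.816). They were also under 7.23, the 99th percentile of the same receptor signals, so Lama2 was near background in both lines. Lama1, the alpha chain of the early embryo, lay between 3.63 and 3.94 on the 6 arrays. Lama3, the alpha chain that anchors the epidermis, lay between 4.83 and 5.31, and Lama4, the alpha chain of mesenchyme and vessel walls, between 4.68 and 4.97. None of these 3 genes had an array above the floor in either line, also not by the second probe sets of Lama3 and Lama4; so none is given a fold, and a level below what the array can separate from background is not shown to be absent. Of all genes, 36% had no array above the floor in either line.

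Lamb1 had the widest difference of the beta chains and of all 9 genes. It encodes the beta chain of the early embryo and of many adult basement membranes. It read 11.71, 11.88 and 11.88 in AB1 and 9.66, 9.17 and 9.27 in AC29. All AC29 arrays were lower, and the array of replicate 13 was the highest of them. The means were 11.82 ± 0.10 (SD, n = 3) in AB1 and 9.37 ± 0.26 in AC29, a log2 difference of -2.46 with a 95% interval of -2.75 to -2.16 (limma adjusted p = 5.46e-07). Lamb1 stayed well above the floor in AC29. A second probe set for it read 9.81, 10.08 and 10.10 in AB1 and 7.78, 7.31 and 7.38 in AC29, and another read 10.04, 10.25 and 10.22 in AB1 and 8.00, 7.84 and 7.92 in AC29. The 3 probe sets thus gave differences of -2.46, -2.51 and -2.25, and their 95% intervals overlap. The remaining one was under the floor on every array, at 4.28 to 4.52.

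Lamb2 encodes the beta chain of the kidney filter and the neuromuscular junction, which takes the place of Lamb1 in some laminins. It read 6.94, 7.02 and 7.06 in AB1 and 7.12, 7.14 and 7.26 in AC29. The AC29 arrays were all higher, but by little: the difference of 0.17 had an interval of -0.02 to 0.36 (limma adjusted p = 0.156), which does not reach a 2-fold change in either direction. Of its 6 values, 1 was above 7.23, so Lamb2 too was close to background. Lamb3 encodes a beta chain of the laminin of the epidermis. It read 4.56, 5.33 and 5.09 in AB1 and 5.76, 6.08 and 6.23 in AC29. The lines did not overlap, but every AB1 array and 1 AC29 array were under the floor, and the AC29 mean of 6.03 was under it too. Its log2 difference of 1.03 (95% interval 0.59 to 1.47, limma adjusted p = 0.0022) therefore rests on values near background, and no fold is given. It fell to 0.82 without AB1 replicate 4 and to 0.93 without AC29 replicate 15, under the 2-fold minimum both times, which leaves 2 chains past the rule.

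Lamc1 encodes the gamma chain shared by most laminins outside the epidermis, among them the trimers of Lama5 with Lamb1 or Lamb2. It read 8.54, 8.80 and 8.70 in AB1 and 9.12, 9.0 and 9.36 in AC29. The AC29 arrays were all higher, at a difference of 0.48 with an interval of 0.22 to 0.74 (limma adjusted p = 0.00815), a 1.40-fold difference under the 2-fold minimum. Its other probe set did not share it. That one read 7.53, 7.64 and 7.72 in AB1 and 7.42, 7.59 and 7.77 in AC29, overlapping, with a difference of -0.03 and an interval of -0.28 to 0.21. The probe sets of Lamc1 thus disagree, and neither reached a 2-fold change. The gamma chain gene Lamc3 had no array above the floor in either line, its values lying between 5.51 and 5.76. Of the 17 laminin probe sets, each taken on its own, 6 passed the rule, 3 of them toward AB1, against 10.3% of all probe sets with 1 gene symbol.

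**Figure D2:**
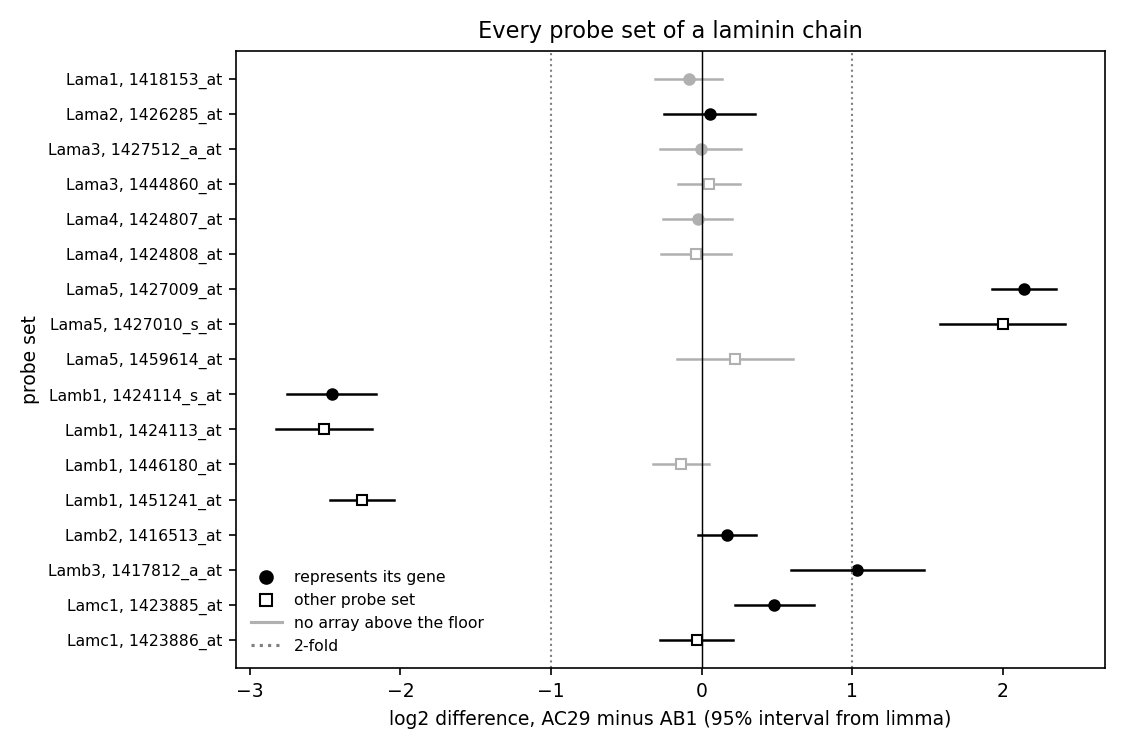
The log2 difference of AC29 minus AB1 (x axis) with its 95% interval for each of the 17 probe sets of the 9 laminin genes (y axis); filled circles are the probe sets that represent a gene, open squares the others, grey those with no array above the floor, and dotted lines a 2-fold difference. The probe sets above the floor lie at 2.14 and 2.00 for Lama5 and between -2.51 and -2.25 for Lamb1, while the probe sets of Lamc1 lie at 0.48 and -0.03.

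The sequences ahead of the gene starts are shown for Lama5 and Lamb1, the chains with the clear differences, and for Lamb2, a beta chain without one. RefSeq promoter windows were matched for 5 of the 9 genes. Only the part ahead of the outermost annotated start of the gene is printed, 5′ to 3′ on the gene's strand, in build GRCm38.p6. Capitals mark the GC box, the letters GGGCGG on either strand.
Lama5: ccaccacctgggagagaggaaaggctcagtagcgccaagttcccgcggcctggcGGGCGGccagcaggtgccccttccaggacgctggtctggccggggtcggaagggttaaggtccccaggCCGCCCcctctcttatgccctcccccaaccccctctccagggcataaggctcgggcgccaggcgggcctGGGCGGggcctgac
Lamb1: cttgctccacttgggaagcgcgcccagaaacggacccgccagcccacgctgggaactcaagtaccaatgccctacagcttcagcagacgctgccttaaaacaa
Lamb2: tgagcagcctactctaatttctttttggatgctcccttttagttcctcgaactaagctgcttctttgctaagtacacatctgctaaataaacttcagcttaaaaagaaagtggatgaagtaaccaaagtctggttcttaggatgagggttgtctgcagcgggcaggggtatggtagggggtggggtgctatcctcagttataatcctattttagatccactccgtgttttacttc

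The Lama5 stretch lies at chr2:180225905-180226109 on the minus strand, the Lamb1 stretch at chr12:31265043-31265145 on the plus strand and the Lamb2 stretch at chr9:108479612-108479846 on the plus strand. The 3 stretches differ in base composition. The 205 bases of Lama5 were 71.7% G or C, above 93.2% of 32850 RefSeq windows cut to their first 205 bases. Windows used for comparison were cut by length alone, not at a gene start as the 3 stretches were. The Lama5 stretch held 3 GC boxes, which 25.6% of those windows have at least once. The 103 bases of Lamb1 were 58.3% G or C and held no GC box, which 10.8% of like windows have, and 1 CCAAT on either strand, which 13.9% have. The 235 bases of Lamb2 were 43% G or C, above 19.1% of like windows, with no GC box (30.6% of windows) and no CCAAT (32.6%). The letters TATAAA and TGANTCA, searched on both strands, were in none of the 3 stretches; 5.38% to 11.9% of like windows hold the first and 2.57% to 6.48% the second. These matches describe letters and not sites in use.

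To set the chains against each other without the scaling of the arrays, the log2 value of one chain was subtracted from that of another on the same array. A level of one probe set cannot be read against that of another, but a change of the difference between the lines shows that the chains changed unequally. Lama5 minus Lamb1 was -4.24, -4.23 and -4.30 in AB1 and -0.05, 0.65 and 0.42 in AC29. The AC29 arrays lay far above the AB1 arrays, the difference moving by 4.60 (exact permutation test, 2-sided p = 0.1, the smallest that 3 against 3 arrays can give). Lama5 minus Lamc1 moved by 1.66, from -1.11 ± 0.04 (SD, n = 3) to 0.55 ± 0.25, and Lamb1 minus Lamc1 by -2.94, from 3.15 ± 0.06 to 0.21 ± 0.31. Lamc1 minus Lamb2 went from 1.67 ± 0.10 to 1.98 ± 0.12, a move of 0.31 that turned to -0.20 with the other Lamc1 probe set. Of the 10 pairs among the 5 chains above the floor on all arrays, the 7 with Lama5 or Lamb1 moved by 1.66 to 4.60 in size. Each had an exact permutation p = 0.1 (0.125 adjusted over the 10), so none could pass a threshold of 0.05. Lamc1 minus Lamb2 had the same p with either Lamc1 probe set, so the p does not set the 7 apart. Each move follows from the differences of its 2 genes given above and is no separate evidence. Lama2 overlapped between the lines against Lamc1 (0.43, exact permutation p = 0.2) and Lamb2 (0.12, exact permutation p = 0.6).

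**Figure D3:**
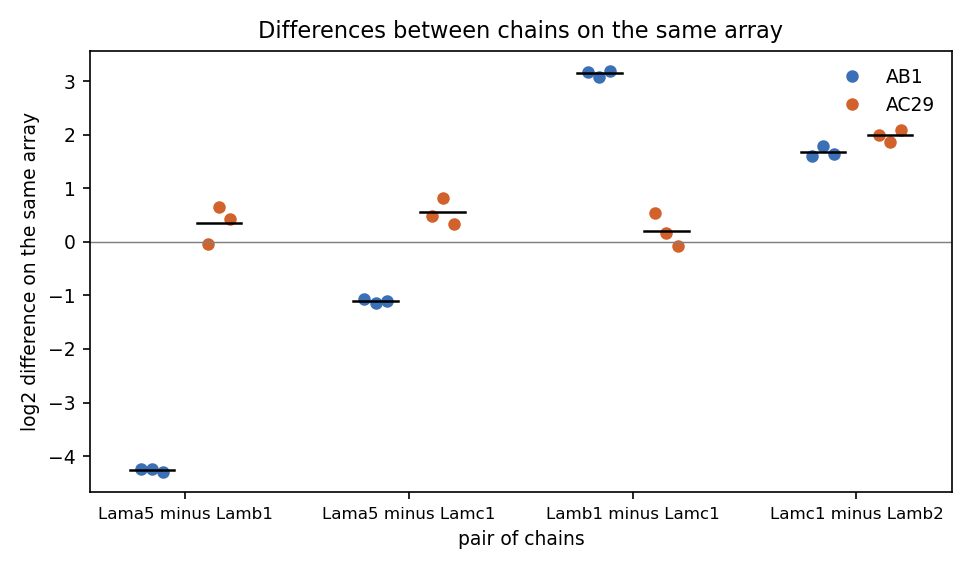
The log2 difference between the members of 4 pairs of laminin chains on the same array (y axis) for the 3 AB1 arrays (blue) and 3 AC29 arrays (orange), with means as black bars. Lama5 minus Lamb1 moved from -4.26 in AB1 to 0.34 in AC29, whereas Lamc1 minus Lamb2 moved from 1.67 to 1.98.

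Genes for laminin receptors went in both directions. Of 11 measured integrin chains and partners, 1 passed toward AC29 and 2 toward AB1, leaving 8 that did not pass; the median difference was 0.58. The share of all genes that passed, 10.9%, is the background for this and the following list counts, and it was 16.6% among genes with a mean above the floor in a line. Itga3, which pairs with Itgb1 to bind Lama5 laminins, was 2.25-fold higher in AC29 (9.58 ± 0.11 against 8.41 ± 0.08, SD, n = 3; limma adjusted p = 7.30e-06). Other Itga3 probe sets above the floor differed by 1.10, past the rule, and by 0.81, not past it. Itga6, which binds laminins with Itgb1 or with the hemidesmosome chain Itgb4, was 2.46-fold higher in AB1 (9.99 ± 0.13 against 8.70 ± 0.28). Itgb5, a partner of Itgav, was 2.37-fold higher in AB1. Itga7, the laminin integrin of muscle, was under the floor in AB1 and read 6.17 in AC29; its difference of 0.94 passed 2-fold only without AC29 replicate 13 (1.02). The shared beta chain Itgb1 differed by -0.53, Itgav by 0.58, Itgb3 by 0.73 and Itgb4, from a mean under the floor, by 0.72. The tetraspanin Cd151, which binds the laminin integrins, differed by 0.64. All of these were under 2-fold. Other probe sets differed by as little as 0.01 for Itgav, 0.29 for Itgb3 and 0.0023 for Cd151. Itga1 and Itga2, which bind collagen and laminin, were at the floor, with differences of -0.09 and -0.11.

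Of 8 other laminin receptors, 2 were higher in AC29 and 2 in AB1, with a median of 0.34. Bcam, the Lutheran glycoprotein and a receptor for Lama5, was 2.34-fold higher in AC29 (7.74 ± 0.10 against 6.51 ± 0.18, SD, n = 3), and the syndecan Sdc1, a heparan sulfate proteoglycan of epithelia, 2.63-fold. All AB1 values of Bcam were under 7.23, the 99th percentile of the receptor signals, and so near background. No other Bcam probe set was above the floor. The syndecan Sdc2 was 3.89-fold higher in AB1. Cd44 differed by -1.02, at the 2-fold minimum, and was under it without AB1 replicate 5 (-0.998) or AC29 replicate 15 (-0.975), while its other probe sets above the floor passed at -1.65 and -1.59. Dag1, which encodes dystroglycan, read 10.82 in AC29 and 10.10 in AB1, a difference of 0.72. Sdc4 differed by 0.44, with another probe set at -0.05, Rpsa, a ribosomal protein also described as a laminin receptor and with many near copies in the genome, by 0.25, and Mcam by -0.23.

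**Figure D4:**
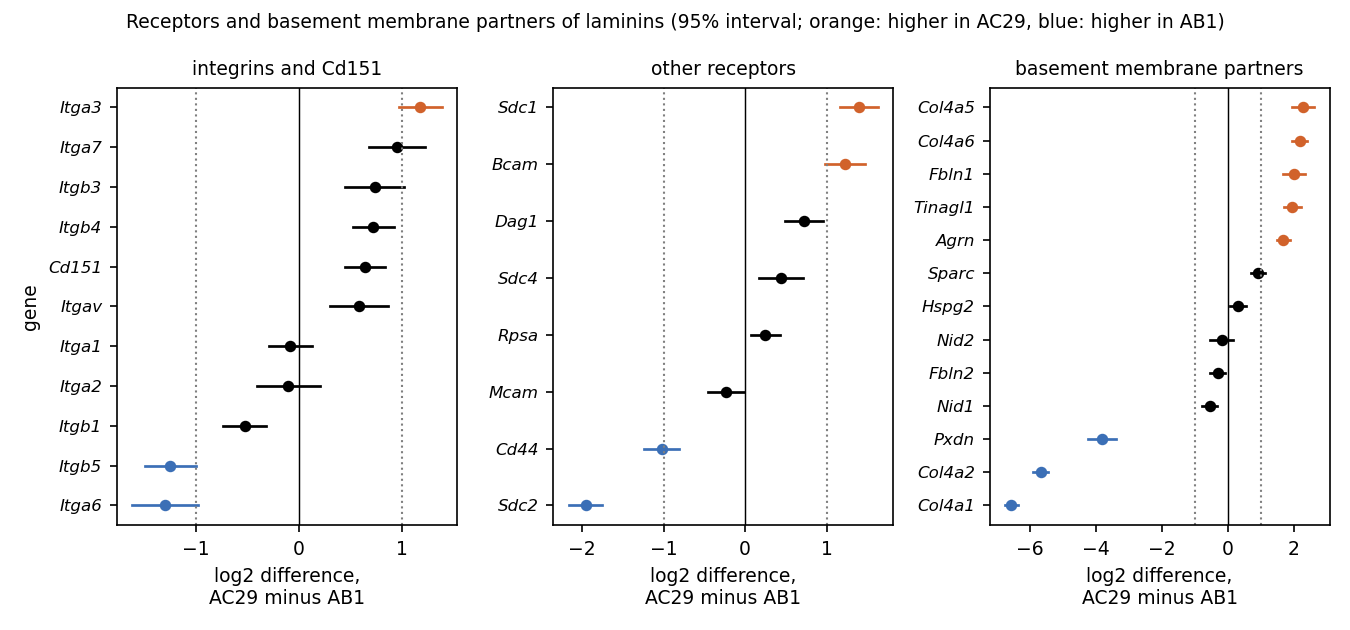
Log2 differences of AC29 minus AB1 (x axes) with 95% intervals for named genes (y axes) of the integrin, other receptor and basement membrane lists; orange genes passed the rule toward AC29, blue toward AB1, black did not pass, and dotted lines mark 2-fold. Col4a1 and Col4a2 lie at -6.56 and -5.66, and Itga3, Bcam, Sdc1 and Agrn on the AC29 side.

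Genes for the other parts of the basement membrane were likewise split. Of 26 measured, 5 were higher in AC29, 3 in AB1 and 18 did not pass; the median was -0.05. Lamb1 was not alone on the AB1 side: the main chains of the collagen network, Col4a1 and Col4a2, were at least 61.1-fold and at least 29.1-fold higher there, with no AC29 array above the floor; another Col4a1 probe set, above it in both lines, differed by -3.77. Pxdn, the peroxidase that crosslinks that collagen, was at least 8.11-fold higher in AB1. On the AC29 side with Lama5 were Agrn, a heparan sulfate proteoglycan that binds laminin (3.20-fold, 9.37 ± 0.04 against 7.69 ± 0.10, SD, n = 3), the less widespread collagen chains Col4a5 (4.88-fold) and Col4a6 (4.498-fold) and the secreted glycoprotein Tinagl1 (3.86-fold). Col4a6 averaged 6.10 in AB1, close to the floor, with 2 of 3 AB1 arrays above it. For Fbln1 the representing probe set gave at least 3.41-fold toward AC29. Another differed by -0.14 on the log2 scale, while a further one passed toward AC29 at 1.25. The linkers between laminin and collagen did not pass: Nid1 read 10.07 in AB1 and 9.51 in AC29, with another probe set at -0.09, Nid2 was under the floor on all arrays, and the perlecan gene Hspg2 read 8.81 and 9.11. Sparc differed by 0.91 and Fbln2 by -0.31. Outside the naming rule and chosen after their values were seen, Col18a1 passed toward AB1 without AC29 replicate 15 (-1.025), and Fras1, under the floor in both lines, toward AC29 without AB1 replicate 5 (1.10) or AC29 replicate 13 (1.04).

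The dystrophin and dystroglycan complex, which ties laminin to the cytoskeleton, had 2 of 12 measured genes higher in AC29 and 2 in AB1 (median 0.08). The sarcoglycan Sgcb was 2.26-fold higher in AC29, with other probe sets at 0.82 and 2.09 on the log2 scale, and Dmd, which encodes dystrophin, at least 1.72-fold, a call lost without AB1 replicate 6 (0.86) or AC29 replicate 15 (0.9998). The sarcoglycan Sgce and its partner sarcospan, Sspn, were at least 5.02-fold and at least 2.68-fold higher in AB1. The Sgce call rests on a probe set with the suffix _a_at, and its other one was under the floor. Dag1 and the dystrophin relative Utrn did not pass. None of 13 genes for the sugar chains by which dystroglycan binds laminin passed the rule in limma, although 7 had an adjusted p under 0.05, all lower in AC29, Dpm1 (-0.26) among them, against 39.1% of all genes at such a p; Rxylt1 differed by -0.11, and the median was -0.25.

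Among 16 proteases and cofactors that can process laminins or matrix, 2 were higher in AC29 and 2 in AB1 (median -0.09). Bmp1, a protease that trims laminin chains and procollagens, was 2.17-fold and Pcolce2, an enhancer of it, 2.54-fold higher in AC29. The gelatinase Mmp2 was at least 13.1-fold and the plasminogen activator Plau at least 1.41-fold higher in AB1, the latter not without AB1 replicate 4 (-0.72), though another Plau probe set passed at -2.42. Mmp14 and Pcolce differed by -0.76 and -0.60. Of 8 hemidesmosome genes, Krt14 passed toward AC29, at least 141-fold, and Itga6 toward AB1 (median 0.19); Col17a1, a defining hemidesmosome gene named after its values were seen, read 3.91 and 4.09, under the floor. The linker Plec differed by -0.97 and passed without AB1 replicate 4 (-1.03) or AC29 replicate 15 (-1.07).

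Of 18 linkers inside the cell, which join integrins to actin, 1 was higher in AC29, Tns1 at 4.27-fold, and 3 in AB1 (median -0.11). These 3 were Ilk (2.46-fold), Parva (2.17-fold) and Parvb (at least 13.3-fold), which encode a kinase-like scaffold and its parvin partners; other probe sets differed by -0.38 for Parva, not past the rule, and by -1.38 for Parvb. Vcl and Actn4 did not pass, at -0.08 and -0.75. Of 16 chaperones and modifying enzymes of the secretory route, P4ha2 was higher in AC29 at 1.003, right at the minimum and under it without AB1 replicate 6 (0.85), AC29 replicate 14 (0.993) or AC29 replicate 15 (0.985), and Pdia6 higher in AB1 at -1.05, with another probe set at 0.34 (median 0.10). Hspa5 and Calr differed by 0.02 and 0.13. Of 6 netrins, relatives of laminins, Ntn1 was at least 1.16-fold higher in AB1 and Ntn4, which can disrupt laminin networks, read 7.59 in AB1 and 7.53 in AC29 (median 0.0039). Ntng1 read 6.97 and 7.14.

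Other cells that make laminins were checked by their markers. Of 12 endothelial markers 8 had no array above the floor in either line, Pecam1, Cdh5, Tek and Vwf among them, and 1 passed, Esam, 21.4-fold higher in AC29. Esam averaged 6.17 in AB1, close to the floor, with 2 of 3 AB1 arrays above it. Flt1 went toward AB1 at -0.997, just under the minimum, passed in 8 of the 14 alternatives that keep the rule (without AB1 replicate 4 or 6 or AC29 replicate 13 or 14 among them, at -1.06 to -1.0003), which makes 2 genes, and had other probe sets past the rule at -1.23 and -3.11. Egfl7 did not pass, at 0.27. The list mean was 5.46 to 5.52 in AB1 and 5.68 to 5.73 in AC29, with a median difference of -0.08. Of 6 Schwann cell markers, Mbp and Pmp22 were higher in AC29, another Mbp probe set differing by only 0.09. The list mean was 6.58 to 6.74 in AB1 and 7.72 to 7.82 in AC29, but the median difference was only 0.42. Sox10 read 6.78 and 6.72, and Erbb3 differed by 0.58. None of 8 skeletal muscle markers passed in limma, with 1 at an adjusted p under 0.05. Acta1 read 7.31 and 7.25 and Des 6.98 and 6.84. The list mean was 5.65 to 5.84 in AB1 and 5.51 to 5.65 in AC29 (median difference -0.09). Of 11 epidermal markers, Krt14 and Cdh1 passed toward AC29, Cdh1 under the floor in both lines. Epcam read 7.46 in AB1 and 8.04 in AC29 and Grhl2 7.44 and 7.37, neither passing. The list mean was 5.17 to 5.32 in AB1 and 6.07 to 6.21 in AC29, but the median difference was 0.0065. Krt14, at 8.24, weighs heavily in that mean. Of 11 macrophage and leukocyte markers, Cd14 passed, higher in AB1. The list mean was 5.71 to 5.78 in AB1 and 5.49 to 5.60 in AC29 (median difference -0.03). Of these 11, 5 had no array above the floor in either line, Ptprc and Adgre1 among them. Cd3e (6.83 and 7.01) and Csf1r (6.56 and 6.66) were above it on all 6 arrays and did not pass. Cd3e, Csf1r, Sox10, Erbb3 and Des were under 7.23, the 99th percentile of the receptor signals, on all 6 arrays, and so were near background. In RNA of a whole culture, fewer cells with a gene and less RNA per cell cannot be told apart.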

How the data were processed

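In the deposited table each of 45101 probe sets had 1 log2 value on each array; the authors' steps are known only from the submitters' processing notes, which name GCOS, RMA and Partek 6.4 without roles. The log2 scale was inferred from these notes and the range of values. RMA draws dim values together, so differences of dim genes can be understated. After 64 control probe sets were left out, 34945 probe sets had 1 gene symbol, 932 several and 9160 none; 34741 matched RefSeq by Entrez identifier. All probe sets entered a linear model of line alone, fitted in R 4.3.3 by lmFit and eBayes of limma 3.58.1 (2-sided; 8.92 moderated degrees of freedom), and p-values were adjusted by Benjamini and Hochberg over 18193 genes, or over 34945 probe sets where single probe sets are given. A line with no array above the floor gives a fold only as a lower bound against the floor, and none where both lines are under it or the bound is below 1. Intervals are limma's at 95%. The model code was run on simulated data with independent normal noise and known shifts, which cannot test effects shared by a line or an array. The laminin genes, the 11 pathway lists and the 7 marker lists were chosen with earlier results of these data known. Named genes were the 9 chains and Lamc3, every measured receptor, Col4a1, Col4a2, Nid1, Nid2, Hspg2 and Agrn, and in each other list the called genes with the largest differences, at most 4 toward each line, plus the 2 brightest not called. Named outside this rule, after their values were seen, were Wt1, Col17a1, Col18a1, Fras1, Pecam1, Cdh5, Tek, Vwf, Ptprc and Adgre1; Gpm6a, Krt8, Hoxc4 and Tm4sf1, marker genes the rule takes, are not described. Lists are given by counts and medians, and marker lists also by their mean on each array, without a set test. Alternatives covered normalization, centring, a filter on dim genes, the choice of probe set, the moderation, array weights, the fold minimum, the floor and leaving out each array. Array values have no sequencing depth; the number of arrays limits the precision.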

Additional observations from a re-analysis of the deposited data

How the results depend on the processing

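No paired analysis was possible because the lines share no replicate number. Lama5 and Lamb1 passed the rule under all 16 alternatives, at 1.45 to 2.19 and -2.60 to -1.84; the values nearest 0 came from the mean of all probe sets of a gene, which includes those under the floor. The number of chains past the rule lay between 2 and 4. Lamb3 was not past a test against a 2-fold difference (1.03, adjusted p = 1), lay between 0.82 and 1.204 with 1 array left out, and could not be tested among genes above the floor. Lamc1 passed without the fold minimum (0.48) and lay between 0.22 and 0.56. Lama2 turned to -0.029 with array weights and lay between -0.058 and 0.207 with 1 array left out, turning to -0.058 without AC29 replicate 14 and never past the rule. The floor was 5.68 at the 90th and 7.23 at the 99th percentile; at the latter 5 chains in place of 3 had no array above it. Without the fold minimum 7105 genes passed, 71 of them among 130 measured pathway genes; against a 2-fold difference 1237 and 19 did, in place of 1991 and 31. In the same order, without the minimum and against 2-fold, the lists had 9 and 0 integrins and partners, 7 and 2 other receptors, 9 and 2 dystrophin complex genes, 7 and 2 proteases, 5 and 1 hemidesmosome genes and 6 and 0 secretory genes; without the minimum 7 dystroglycan sugar genes, 16 basement membrane genes and 8 linkers passed. Secretory genes numbered 1 in place of 2 with arrays centred on their median, with array weights, on either mean of probe sets and without AB1 replicate 6, AC29 replicate 14 or AC29 replicate 15 (range 1 to 2). Of the netrins 0 passed on the mean of probe sets (Ntn1 at -0.81), and Agrn, Bmp1 and Dmd also missed the minimum there (0.86, 0.82 and 0.51). Parva (-0.75) and Pdia6 (-0.355) missed it on either mean of probe sets. The mean over probe sets above the floor and the differences within arrays were added after seeing the data. For the other chain and pathway list counts and settings run, the count was within 1.5 times the one given; marker lists were not counted under the alternatives, apart from Flt1. In another alternative, probe sets ending in _x_at, _s_at or _a_at were left out where a gene had others. Acta2 (-0.18), Sgce (-0.22) and Fbln1 (-0.14) then missed the rule, the first 2 on probe sets under the floor. Lamb1, represented by a probe set ending in _s_at, still passed (-2.25). Cd44 missed it with array weights (-0.988).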
